A study of Mus musculus with 12 samples.

Results

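The cytosolic ribosomal protein genes were followed through RNA-seq of mouse sensory neuron fractions. They were taken by symbol: Rpl or Rps with a number and, for some, a letter such as a, l or x after it, together with Rpsa, Rplp0, Rplp1 and Rplp2, and without the S6 kinases. This gave 83 genes of the 22609 listed, 51 of the large and 32 of the small subunit. No measured value entered the choice.

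The 12 libraries came from naive C57BL mice (C57BL/6J in the methods), given as 3-4 months old in the labels and as younger, in weeks, in the methods of the study, which also place all females in estrous. Female TG (trigeminal ganglion, which innervates the head), male TG, female DRG (dorsal root ganglion, lumbar here) and male DRG had 3 libraries each, with no treatment or transgene in any group. Ganglia were dissociated with liberase and dispase, and the neuronal fraction was taken from a Percoll gradient, which sorts cells by density. The labels do not say how many animals went into a library or that replicates came from separate animals, so p-values measure the spread between these libraries, which may be technical.

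Reads in genes ran from 7511765 to 15396090 per library, and 3 counts, taken as the smallest level a library can show, stood for 0.195 to 0.399 CPM (counts per 1e+06 reads in genes) before scaling. CPM values below are scaled by TMM factors. The neuron markers summed to between 7711 and 13818 CPM in all 12 libraries, so the neuronal label was met, but satellite glia (2546 to 6959 CPM), myelinating Schwann cell (1784 to 2783 CPM) and fibroblast markers (586 to 1662 CPM) were also high in every library. Skeletal muscle and germ cell markers summed to at most 3.64 and 8.05 CPM. Of the 4 erythroid genes, the globin genes Hba-a1, Hbb-b1 and Hbb-b2 were at 0, and Alas2 was at 2.80 to 20.3 CPM. By the criteria given below Alas2 was lower in females in TG and not called in DRG. Whether reads of the globin genes align to 1 place was not examined, so their 0 cannot be read as absence. In such mixed fractions, fewer cells of a type and less RNA per cell cannot be told apart.

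A ribosome consists of a small subunit, which reads the mRNA, and a large subunit, which joins amino acids. Each subunit holds ribosomal RNA and a set of proteins, most of them encoded in mammals by 1 expressed gene each and present as 1 copy per ribosome. Their mRNAs are short and abundant, begin with a tract of pyrimidines through which mTOR signalling and Larp1 control their translation, and have been copied back into the genome many times as processed pseudogenes. Neurons keep many of these mRNAs in their axons as well as in the cell body. The libraries were made from total RNA after removal of ribosomal RNA, so the counts below are of mRNA and say nothing of ribosome number.

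The pseudogene copies may bear on the levels below, since the counting left out reads that aligned to more than 1 place. The deposited total for alignments that were not unique was 1.17 to 1.89 per read in a gene across the libraries. It covers the whole genome, and whether it counts reads or alignments is not stated. It does not give the part that falls on these genes. To show such copies on the sequence itself, 50-base words (the read length) from the middle of coding sequences are given. They come from a gene with 0 counts, a gene with few and a gene with many. Each lies within 1 exon and is written 5′ to 3′ on the coding strand.
Rps23 (chr13:91063957-91064006, NCBIM37, plus strand): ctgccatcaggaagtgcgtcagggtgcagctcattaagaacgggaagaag
Rps6 (chr4:86501868-86501917, NCBIM37, minus strand): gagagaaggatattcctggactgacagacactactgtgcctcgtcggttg
Rps3 (chr7:106628524-106628573, NCBIM37, minus strand): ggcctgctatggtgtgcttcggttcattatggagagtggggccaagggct

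The Rps23 word occurred at 4 places of the mouse genome without mismatch and at 8 places with up to 2 mismatches. The Rps6 word, from the S6 kinase target of the small subunit, occurred at 2 and 13 places. The Rps3 word occurred at 1 place exactly and at 2 with mismatches. Rps23 had 0 counts in all 12 libraries and Rps6 6 to 118, while Rps3 had 1789 to 7779. These 3 genes were chosen for display after their counts were seen.

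Over the 82 members with a transcript in the annotation (Rpl41 had none), the share of 50-base words of the spliced transcript found once in the genome had a median of 39.2% and ran from 0.338% to 99.3%. Within the coding sequence the median was 9.57%, and 28 members had not 1 such word. With up to 2 mismatches 64 of the 82 had none. Among the lowest shares over the transcript were those of Rps27 (0.338%), Rps12 (1.92%), Rpl9 (4.65%) and Rps6 (5.31%). Their median counts per library were 10, 24, 29.5 and 49. They encode small-subunit proteins except Rpl9, a large-subunit protein.

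Levels between genes are given per length. The 28 members without a unique coding word had a median of 3.60 CPM per kilobase of transcript and held 6.38% of all member reads. The 29 members with a share above 0 and up to 20% had a median of 11.2, the 11 members between 20% and 50% a median of 104, and the 14 members above 50% a median of 145 CPM per kilobase of transcript. Those last 14 held 45.1% of member reads. Spearman's rho between coding share and level per kilobase of transcript was 0.51 over 82 genes measured in the same libraries, a description only. For the share over the whole transcript it was 0.34, and with up to 2 mismatches 0.09. Over the exon union (all exon positions of a gene's transcripts together) the median share was 76.2% and rho was 0.09. The relation thus depended on which part of the gene was searched.

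**Figure D1:**
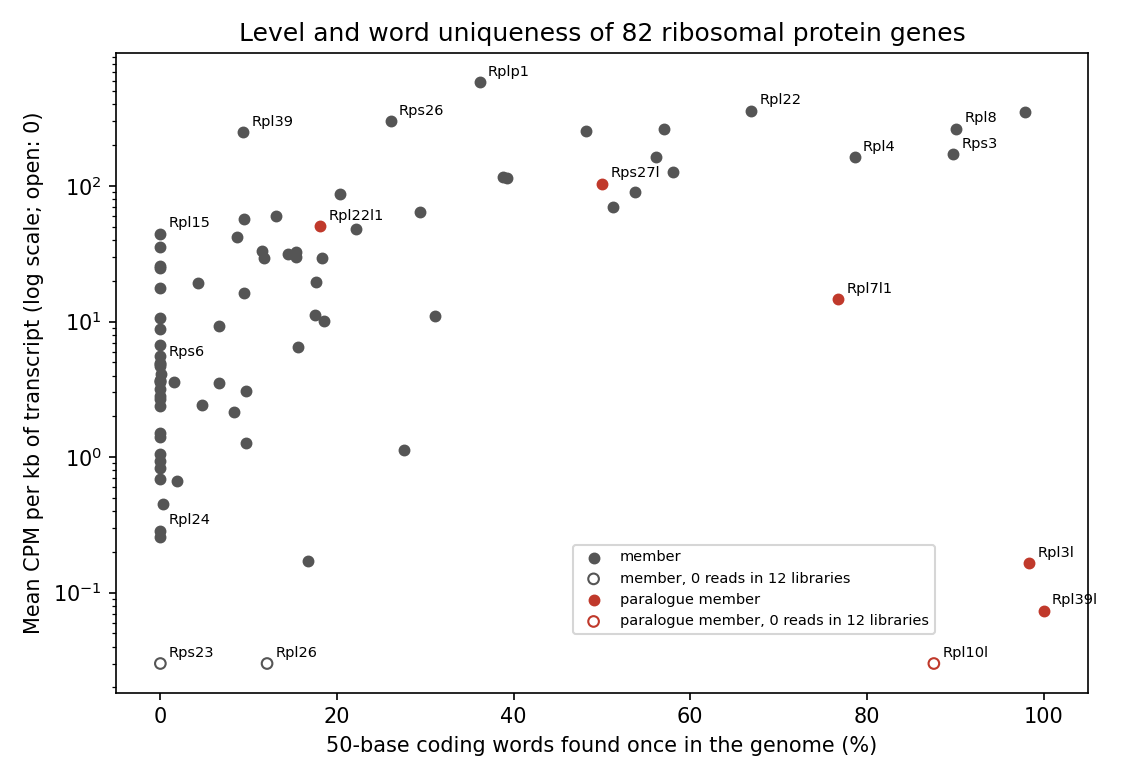
Each point is 1 of 82 members, with the percent of its 50-base coding words found once in the genome on the x axis and its mean CPM per kilobase of transcript over 12 libraries on a log y axis, open points standing for 0. The members with no unique coding word have a median of 3.60 and those above 50% a median of 145. Rpl8, Rps3 and Rpl4 lie high on the right. The paralogues Rpl10l, Rpl39l and Rpl3l are at or near 0 although their coding words are mostly unique by exact match. With up to 2 mismatches the share of Rpl10l is 9.40%.

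The 3 members at 0 in every library were Rps23, Rpl26 and Rpl10l, and 16 more had a median of at most 20 counts. These 19 members included 10 of the 28 without a unique coding word and 5 of the 29 with a share above 0 and up to 20%. They also included 1 of the 11 between 20% and 50% and 3 of the 14 above 50%. A coding share under 20% was found for 15 of the 19, as it was for most members. The 4 exceptions were Rpl34 (27.5%) and the paralogues Rpl10l (87.6%), Rpl39l (100%) and Rpl3l (98.4%), all by exact match. With up to 2 mismatches the share was 0% for Rpl34 and 9.40% for Rpl10l, so the 0 of Rpl10l carries the same limit. Rpl30, among the 15, had 55.2% of its transcript words unique by exact match and 0 counts in 8 libraries. Rpl26, a large-subunit protein at the exit tunnel, had a coding share of 12.1% by exact match and 0% with up to 2 mismatches. A count of 0 or near 0 in a member with few unique words cannot be read as absence of its mRNA. The floor of 3 counts allows a counted level of up to 0.399 CPM in the shallowest library, and this covers counting error only.

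The highest levels per kilobase of exon union were those of Rplp1, the acidic stalk protein that recruits elongation factors (585 ± 225 CPM per kilobase, SD over 12 libraries), Rps26 (303 ± 123), Rpl8 (266 ± 69.8), Rps15 (201 ± 73.5) and Rpl4 (163 ± 50.2). Rplp1 stood above the rest, whereas the neighbours from Rps26 to Rpl4 differed by less than their SD. The 5 lowest measured levels were those of Rpl28 (0.136), Rpl3l (0.107), Rpl39l (0.0715), Rpl30 (0.0504) and Rpl24 (0.0322), each at or near the floor. Per kilobase of the longest transcript, 3 of the 5 highest members remained among the 5 highest. The proteins of a ribosome are present in equal numbers for most members, yet the counted levels spread with an SD of 3.20 on the log2 scale over 79 members above 0. Per kilobase of uniquely found exon positions the SD was 3.49 over 78 members, so the scale by unique length did not narrow it.

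The stalk and binding proteins also differed. Rplp0, the base of the stalk, had 96.1 ± 28.8 CPM per kilobase of exon union and its partner Rplp2 5.12 ± 1.86, with 38.8% and 31.1% of their coding words unique. Rpsa, which also serves as a laminin receptor, had 4.14 ± 2.23, with 0.119% of its coding words unique. Rps6, with no unique coding word, had 2.76 ± 1.96. Together the 3 members with the most reads, Rps3 and Rplp1 among them, held 22.8% of the 531411 member reads, and the 20 with the most held 79.5%. At least 100 counts in every library were found for 35 members, whose coefficient of variation over the 12 libraries ran from 26.2% (Rpl8) to 55.6% (Rpl18) with a median of 39.6%. Exons of 26 members overlapped those of another gene, 16 on the same strand, where most partners were snoRNAs, and 14 on the opposite strand. The strand setting of the counting is not given in the sources used here, so reads of such pairs cannot be assigned with certainty.

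Tissue paralogues are second genes for a ribosomal protein, often used in testis or muscle. There were 6 among the members: Rpl3l (muscle), Rpl10l and Rpl39l (testis), Rpl22l1, Rpl7l1 and Rps27l. Coding sequences are printed for the pair whose parent Rps27 has no unique coding word and for a testis copy with 0 counts in most libraries. The bases that differ between the pair are in capitals (NCBIM37, first to last coding base).
Rps27 (chr3:90016647-90017537, minus strand, 4 coding exons): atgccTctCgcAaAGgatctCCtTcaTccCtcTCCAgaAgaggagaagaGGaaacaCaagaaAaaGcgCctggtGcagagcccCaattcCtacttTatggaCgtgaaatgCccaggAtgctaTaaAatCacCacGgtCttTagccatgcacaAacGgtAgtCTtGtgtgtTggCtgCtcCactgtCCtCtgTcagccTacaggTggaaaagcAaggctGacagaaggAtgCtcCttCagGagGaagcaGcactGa
Rps27l (chr9:66793982-66797164, plus strand, 4 coding exons): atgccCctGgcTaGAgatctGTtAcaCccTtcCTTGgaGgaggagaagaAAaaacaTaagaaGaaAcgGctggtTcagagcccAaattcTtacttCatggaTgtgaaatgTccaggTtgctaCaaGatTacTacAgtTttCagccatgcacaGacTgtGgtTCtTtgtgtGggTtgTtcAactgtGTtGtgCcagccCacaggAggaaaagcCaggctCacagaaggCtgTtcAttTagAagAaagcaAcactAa
Rpl39 (chrX:34622696-34625122, minus strand, 3 coding exons): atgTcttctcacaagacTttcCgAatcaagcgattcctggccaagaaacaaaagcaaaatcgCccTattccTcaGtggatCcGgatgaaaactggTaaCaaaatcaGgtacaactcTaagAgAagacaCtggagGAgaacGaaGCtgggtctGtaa
Rpl39l (chr16:10174403-10174558, plus strand, 1 coding exon): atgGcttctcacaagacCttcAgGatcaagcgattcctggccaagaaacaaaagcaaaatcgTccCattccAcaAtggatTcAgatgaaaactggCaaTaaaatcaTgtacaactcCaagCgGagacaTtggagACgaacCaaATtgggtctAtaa

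The Rps27 pair differed at 61 of 255 bases (76.1% identity) and the Rpl39 pair at 23 of 156 bases (85.3%). No coding word of Rps27 was unique, against 50% of the words of Rps27l. Rps27 had 0 to 84 counts and Rps27l 268 to 1051, so Rps27l held 96.6% of the reads counted for the pair. Since the parent had no unique coding word, this share does not compare the mRNAs. The reverse held for Rpl39l, whose words were all unique: it had 0 counts in 10 libraries, 5 in female TG 1 and 3 in male TG 1, against 829 to 3056 counts of Rpl39. Rpl3l had 0 counts in 9 libraries, 4 in female TG 1, 20 in male TG 2 and 4 in male DRG 3, against 126 to 620 of Rpl3. Rpl10l was at 0 throughout, and its parent Rpl10, itself without a unique coding word, had 0 to 77 counts.

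Rpl22l1, which is known to be held down by Rpl22 protein in other tissues, had 50.7 CPM per kilobase of exon union and Rpl22 58.8. Per kilobase of transcript the values were 50.7 and 361, and per kilobase of unique exon positions 199.95 and 66.0, so their order depends on the length used. Unique coding words were 18.1% for Rpl22l1 and 66.9% for Rpl22. Rpl7l1, which works in ribosome assembly, had 14.7 and Rpl7 20.9 CPM per kilobase of exon union, and 14.7 and 48.4 per kilobase of transcript, with 76.7% and 22.1% of coding words unique. Ratios of paralogue to parent within a library were compared for the 3 pairs whose copies both reached a mean of 10 counts. In TG the log2 ratio of Rpl22l1 to Rpl22 per kilobase was -0.44 ± 0.29 (SD, n = 6) and in DRG -0.10 ± 0.58, with values from -0.93 to -0.08 and from -0.94 to 0.52. The ranges overlapped, and the difference of -0.34 did not pass a two-sided exact permutation test (p = 0.223, 0.439 after Benjamini-Hochberg adjustment over 3 pairs). The ratio of Rpl7l1 to Rpl7 was -0.42 ± 0.19 in TG and -0.59 ± 0.44 in DRG, a difference of 0.17 (exact permutation p = 0.413, adjusted 0.439). The ratio of Rps27l to Rps27 differed by -1.05 (exact permutation p = 0.439, adjusted 0.439), with SDs of 2.50 and 2.02 and a median of 10 counts for Rps27. Between the sexes, within a ganglion, 6 such comparisons gave exact permutation p-values of 0.2 to 0.7 (adjusted 0.4 to 0.7), where 3 libraries against 3 cannot go below 0.1.

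**Figure D2:**
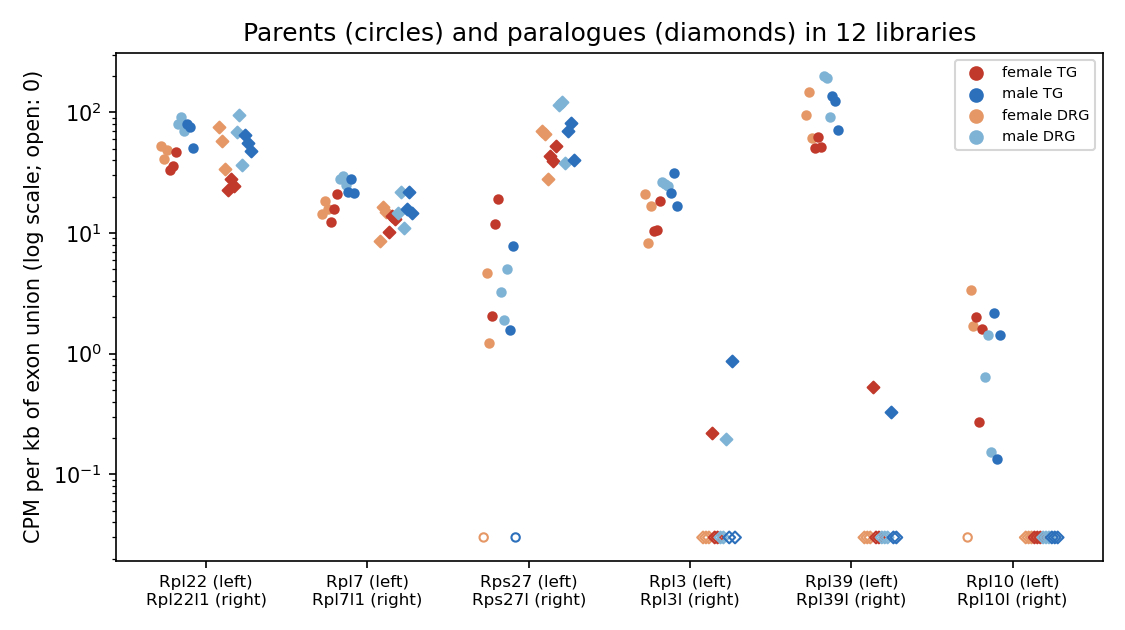
CPM per kilobase of exon union on a log y axis for the parent (circles) and the paralogue (diamonds) of 6 pairs on the x axis, 1 point per library coloured by group, open points standing for 0. On this length scale Rpl22l1 and Rpl7l1 lie close to their parents, which they do not per kilobase of transcript, Rps27l lies above Rps27, and Rpl3l, Rpl39l and Rpl10l are at 0 in most or all libraries.

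The summed members made up 0.253%, 0.295% and 0.346% of reads in genes in female TG 1, 2 and 3, and 0.450%, 0.477% and 0.290% in male TG 1, 2 and 3. In DRG the shares were 0.412%, 0.362% and 0.275% in females and 0.555%, 0.517% and 0.337% in males. The 95% Wilson interval of the lowest share ran from 0.250% to 0.256% and that of the highest from 0.551% to 0.560%, for counting error only. The means were 0.298% ± 0.0462 and 0.405% ± 0.101 (SD, n = 3) in female and male TG, and 0.350% ± 0.0693 and 0.470% ± 0.117 in female and male DRG. Male libraries 1 and 2 were above every female library in both ganglia, and male library 3 lay within the female range in both. Small-subunit reads were 0.683 to 0.994 of large-subunit reads, with ranges that overlapped between all groups.

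Reads outside annotated genes differed between the sexes as well. They were 47.7%, 49.1% and 43.5% of reads in and outside genes in female TG 1, 2 and 3, and 40.8%, 37.6% and 47.9% in male TG, so that male TG 3 was near the female libraries in both measures. In DRG they were 50.4%, 48.5% and 46.4% in females and 40.2%, 38.2% and 42.6% in males, without overlap. Within female DRG the library with the most reads outside genes had the highest member share, and male DRG 3 stayed on the male side in this measure. Markers of other cell types also moved with sex. The 7 macrophage genes, all detected, summed to 261 to 520 CPM in female and 93.7 to 231 CPM in male TG, and to 147.1 to 355 and 125 to 146.8 CPM in DRG, without overlap. By the criteria given below, 3 of the 7 were higher in female TG and 2 in female DRG, as were 2 and 1 of 5 fibroblast genes, 2 and 1 of 4 mural genes, 0 and 2 of 5 endothelial genes, and 2 and 0 of 6 Schwann cell genes. Mural sums did not overlap in DRG (241 to 498 CPM in females and 191 to 240 CPM in males), the other sums of these last 4 lists overlapped between the sexes in each ganglion, and 1 of 13 neuron genes was higher in females in each. The part of these measures in the sex comparisons below was not tested.

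**Figure D3:**
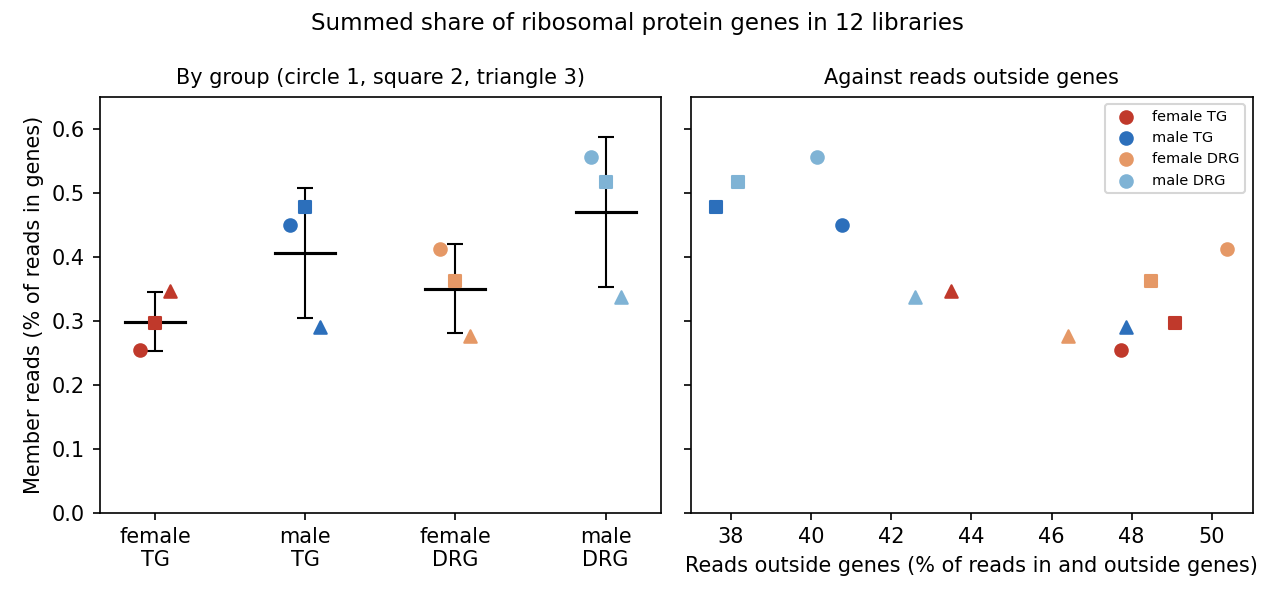
Left, summed member reads as a percent of reads in genes for each library by group, with the mean and SD (n = 3) as bars; right, the same y axis against the percent of reads outside genes. Circles, squares and triangles mark libraries 1, 2 and 3. The male circles and squares, from 0.450% to 0.555%, lie above all female libraries and at the low end of reads outside genes.

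The sex comparison asked which members differ between female and male fractions of a ganglion. In TG most members were lower in females, none of them past edgeR's adjusted p. Of 68 members tested, 57 had a negative and 11 a positive log2 fold change (female over male), with a median of -0.49 beside 0.05 over all 14009 genes. Calls followed the criteria of the study in part: fold change above 2, unadjusted p under 0.05 and a mean level above 1 in the higher sex, with edgeR's p in place of DESeq's and CPM in place of RPKM, which for short genes is not the same limit. By these criteria 5 members were higher in males, where 2.26% of all genes were, and 0 were higher in females, where 5.15% of all genes were. By edgeR's adjusted p, 0 members passed 0.05 (0.0357% of all genes did), while 16 had an unadjusted p under 0.05, all lower in females, against 9.79% of all genes in that direction. DESeq2 passed 8 members at its adjusted p, where the count of all genes was not kept. By DESeq2's test the criteria were met by 7 members, all higher in males, and by 1121 of all 14009 genes. Female and male values did not overlap, with males higher, in 14 members, against 11.4% of all genes.

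In DRG 61 of 66 members tested were lower in females and 5 higher, with a median log2 fold change of -0.70 beside 0.02 over all genes. The same criteria were met by 7 members, all higher in males (2.96% of all genes), and by 0 higher in females (2.01% of all genes). By edgeR's adjusted p, 0 members passed 0.05 (0.0358% of all genes). An unadjusted p under 0.05 was found for 14, all lower in females (8% of all genes in that direction). DESeq2 passed 2 members at its adjusted p, where the count of all genes was not kept. By DESeq2's test the criteria were met by 8 members, 1 of them higher in females, and by 764 of all 13963 genes. Male values lay above all female values in 15 members (10.4% of all genes). Of the 83 members, 15 had too few counts to be tested in either ganglion, so these shares are of the members tested.

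These counts rest on settings and libraries. The members are short, with a median exon union of 1454 bases against 3719 for genes tested, and have a median GC content of 50.6% against 49.8%. With a correction for GC content and length, median values were -0.14 for TG and -0.11 for DRG, beside 0.05 and 0.10 over all genes. The criteria were then met by 4 and 3 members, 2 of them among the uncorrected calls in each ganglion. They were met by 308 of all 14009 genes in TG and 495 of all 13963 in DRG. Of these corrected calls 1 in each ganglion was higher in females, Rps27 in TG (log2 fold change 3.10) and Rps25 in DRG (3.34). Without female TG 3 the criteria were met by 17 members and by 2532 of all 14379 genes, against 1038 genes with all 6 libraries. In that fit 24 members passed edgeR's adjusted p, where the count of all genes was not kept. Without male TG 1 or male TG 2 the criteria were met by 2 members each, and by 595 and 867 of all genes. In the libraries numbered 1 and 2 alone, chosen after seeing the data, 28 of 70 members met the criteria in TG, as did 3496 of all 14170 genes. There 41 members passed the adjusted p, again without a count of all genes. This fit leaves out female TG 3, with the highest member share of its group, and male TG 3, with the lowest of its group. Its counts therefore add no independent support.

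**Figure D4:**
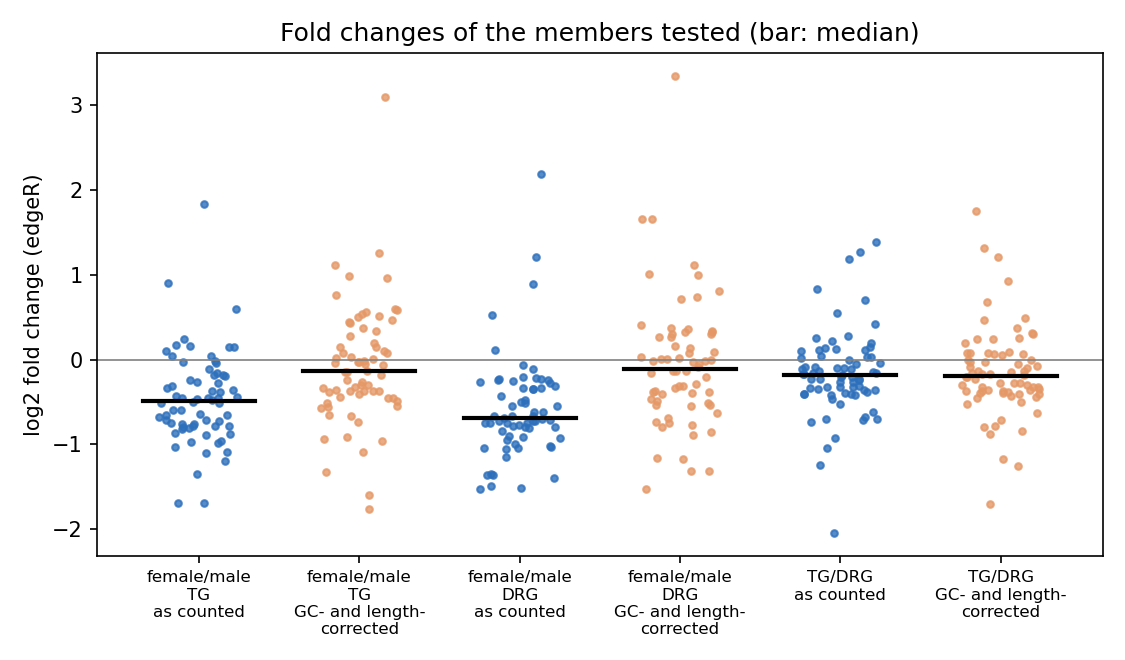
Log2 fold changes from edgeR on the y axis, 1 point per member tested, for female over male in TG and in DRG and for TG over DRG on the x axis, each as counted and with a correction for GC content and length. Bars are medians: -0.49 and -0.14 in TG, -0.70 and -0.11 in DRG, and -0.18 and -0.19 for TG over DRG.

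Rpl15, a large-subunit protein that the study listed, was at 39.2, 40.6 and 45.0 CPM in female TG and at 148, 98.7 and 81.8 CPM in male TG. Every male library was above every female library, and the log2 fold change was -1.35 (SE 0.27, edgeR adjusted p = 0.154). In DRG it was at 39.0, 62.6 and 76.1 CPM in females and 136, 168 and 92.1 CPM in males, again without overlap (log2 fold change -1.14, SE 0.32, adjusted p = 0.307). With the correction for GC content and length the values were -0.93 and -0.74. The gene lies on chromosome 14 (NCBIM37, 19100337 to 19103905), has no unique coding word and overlaps exons of Nkiras1 on the other strand.

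Rpl18, a large-subunit protein, was at 17, 29.6 and 42.1 CPM in female DRG and at 104, 84.1 and 48.5 CPM in male DRG, without overlap (log2 fold change -1.40, SE 0.38, edgeR adjusted p = 0.307, -1.52 with the correction). In TG it was at 27.3, 27.0 and 30.3 CPM in females and 64.6, 73.4 and 35.2 CPM in males, with male 3 just above the females (log2 fold change -0.99). Rps18, a small-subunit protein of the decoding head, was at 10.5, 8.43 and 10.7 CPM in female TG and at 22.4, 25.3 and 17.5 CPM in male TG (log2 fold change -1.09, SE 0.31, adjusted p = 0.154, -1.10 with the correction). In DRG the third male library, at 11.3 CPM, fell within the female range of 6.35 to 17.8 CPM. Rpl15, Rpl18, Rpl22 and Rpl7 were the 4 members without overlap, males higher, in both ganglia. Of all genes 11.4% had this in TG and 10.4% in DRG. The share of all genes with it in both was not computed, so the 4 have no baseline.

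Rpl22l1 was at 11.2, 13.7 and 12 CPM in female TG and at 31.4, 27.1 and 23.2 CPM in male TG, without overlap (log2 fold change -1.10, SE 0.29, edgeR adjusted p = 0.154). With the correction for GC content and length the value was 0.08, so its direction turned. In DRG the groups overlapped, at 37.0, 28.1 and 16.4 CPM in females and 33.5, 46.2 and 17.9 CPM in males. Its parent Rpl22 was at 96.7, 104 and 136 CPM in female and 234, 221 and 146 CPM in male TG, and at 154, 118 and 142 CPM in female and 233, 263 and 205 CPM in male DRG. The log2 fold changes of Rpl22 were -0.79 and -0.75, under the fold change of 2. Rpl39, at the exit tunnel, and Rps15a also had no overlap in TG, with -0.96 and -0.78, and Rpl39 had -0.30 with the correction. Rps3 and Rpl11, named because they met the criteria, had -1.03 and -1.69 with groups that overlapped.

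Rpl6, a large-subunit protein, was at 4.4, 5.78 and 8.13 CPM in female DRG and at 19.1, 19.6 and 14.5 CPM in male DRG, without overlap (log2 fold change -1.53, SE 0.46, edgeR adjusted p = 0.309). In TG its groups overlapped. Rpl31 and Rpl32 had -1.03 and -0.92 in DRG without overlap, and -0.02 and 0.02 with the correction. Rpl13, the other large-subunit protein that the study listed, was at 1.90, 3.91 and 17.7 CPM in female DRG and at 25.2, 25.9 and 16.9 CPM in male DRG. Female DRG 3 was above male DRG 3, and the log2 fold change was -1.52 (SE 0.66, adjusted p = 0.399). In TG Rpl13 was at 5.28, 3.61 and 19.1 CPM in females and 15.4, 19.2 and 12.2 CPM in males, so that female 3 was again among the males. The remaining calls in DRG, Rpl11 and Rpl37a, had -1.36 and -1.05. Rpl15 and Rpl11 were the 2 members among both the 5 TG and the 7 DRG calls.

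**Figure D5:**
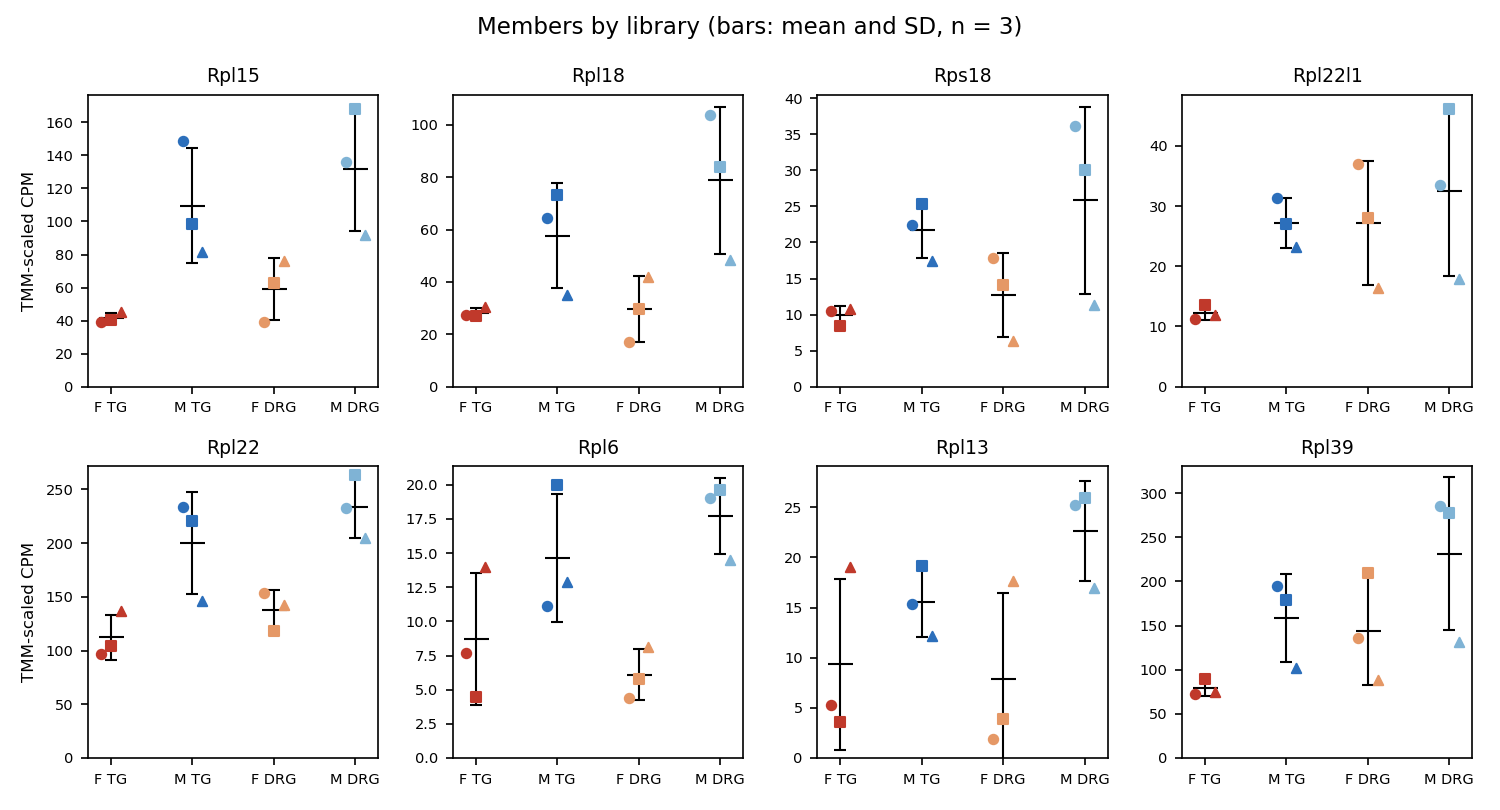
TMM-scaled CPM of 8 members on y axes that start at 0, 1 point per library with circles, squares and triangles for libraries 1, 2 and 3, and bars for the mean and SD of each group (n = 3; F female, M male). Rpl15 has all male points above the female points in each ganglion, from 81.8 to 148 CPM against 39.2 to 45.0 CPM in TG.

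The members higher in females had low counts. In TG they included Rps27 (log2 fold change 1.83, SE 1.32), Rpl27 (0.60), Rplp2 (0.17) and Rpl36a (0.25), with edgeR adjusted p from 0.441 to 0.938. In DRG the 5 were Rps25 (2.19, SE 1.24, adjusted p = 0.507), Rpl10 (1.21), Rps27a (0.89), Rps16 (0.52) and Rpl17 (0.11). Rps25, which takes part in internal initiation, had 81, 26 and 28 counts in female DRG and 15, 4 and 17 in male DRG, without overlap, but 19, 56 and 0 in female TG against 13, 47 and 14 in male TG. Of the members named here, Rplp2 alone had a median above 100 counts.

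Whether the sex effect differed between the ganglia was tested by an interaction in edgeR over all 12 libraries. Of 72 members 0 passed an adjusted p of 0.05, as did 0% of all genes, and 0 had an unadjusted p under 0.05, against 1.97% of all genes. DESeq2 also passed 0.

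TG against DRG asked how neuron fractions of the ganglia differ. Of 72 members tested 51 were lower and 21 higher in TG, with a median log2 fold change of -0.18 beside -0.01 over all genes, less than the SD of 0.32 between libraries of a group in their median member level. The criteria (edgeR adjusted p under 0.05 and fold change above 2) were met by 0 members and by 0.769% of all genes. An unadjusted p under 0.05 was found for 3 members, all lower in TG, against 4.18% of all genes in that direction, and DESeq2 passed 0 at its adjusted p. These were Rpl39 (119 ± 54.2 CPM in TG and 188 ± 82.4 in DRG, SD, n = 6, log2 fold change -0.71, SE 0.24, edgeR adjusted p = 0.278), Rpl22l1 (19.7 ± 8.63 and 29.8 ± 11.5 CPM, -0.70) and Rps6 (2.79 ± 2.25 and 5.96 ± 3.20 CPM, -1.24). The ranges of TG and DRG overlapped for each. Rps26 and Rps20 followed with -0.46 and -0.42. On the other side Rpl35 (1.27), Rps27 (1.18), Rps13 (1.39), Rpl12 (0.70) and Rpsa (0.28) had edgeR adjusted p of 0.878 to 0.974 and, except Rpsa, medians of at most 23 counts.

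The rest of the translation machinery was followed by lists, without the correction for GC content and length. Of all genes, 2.26% in TG and 2.96% in DRG met the criteria with males higher. With females higher, 5.15% and 2.01% did. The 76 mitochondrial ribosomal protein genes, which serve the organelle's own ribosome, had medians close to the uncorrected ones of the members. They were -0.61 in TG and -0.68 in DRG, beside 0.05 and 0.02 over all genes. Of 74 tested, 69 were lower in females in each ganglion, and 6 in TG and 15 in DRG met the criteria, led by Mrpl27 (log2 fold change -1.54 in TG and -1.29 in DRG) and Mrpl46 in TG (-1.08) and Mrpl41 in DRG (-1.15). No mitochondrial member met them in the other direction, where Mrpl38 (0.55) came first in TG. In TG against DRG 0 of 74 were called (0.769% of all genes), with a median of -0.17.

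Of the 4 ribosomal proteins outside the symbol rule such as Gnb2l1, also known as Rack1, 0 met the criteria. Gnb2l1, a scaffold on the small subunit, had -0.69 in TG and -0.80 in DRG. Elongation factors went both ways: medians were -0.08 in TG and -0.29 in DRG, 0 of 7 were called, and in TG Eef2, which moves the ribosome along, had 0.62 and Eef1b2, an exchange factor, -0.95. Of 28 initiation factors 0 were called in TG, with a median of -0.21, and 1 in DRG, Eif3i (-1.16), with a median of -0.09. The RNA helicase Eif4a2 had -0.98 and -0.80, and the scaffold Eif4g1 0.62 and 0.54. Of 24 assembly factors 0 were called in TG and 1 in DRG, Nhp2 (-1.37), a protein of snoRNA particles, with medians of -0.21 and -0.00.

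Of the 12 genes that control ribosomal protein mRNA, 1 was called higher in female TG, the translation repressor Eif4ebp2, chosen here after its value was seen, and 0 in DRG, with medians of 0.63 and 0.23. Larp1, which binds the start of these mRNAs, had 0.90 in TG and 0.72 in DRG, and Rptor, a subunit of the mTOR complex, 0.66 in TG. Rheb, which activates that complex, had -0.90 and -0.91, and Cnbp, an RNA-binding protein, -0.87 and -0.76. None of the genes in these 6 lists passed edgeR's adjusted p of 0.05 in any of the 3 comparisons.

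The first bases of the members were searched for short pyrimidine runs. Of the members, 62 matched the promoter table of RefSeq (GRCm38.p6). Within 20 bases before and 20 after the start, on the sense strand, the letters CTTTC were found in 18 of 62 members (29%) and in 5.38% of all 27025 promoters, CTTCC in 24.2% and 8.97%, and CTTTT in 9.68% and 4.19%. On the other strand these letters were found in 4.84%, 19.4% and 1.61% of members and in 4.70%, 9.77% and 3.92% of all promoters, so that CTTCC was more frequent in members on both strands. The motifs can overlap each other and were chosen with earlier results known. Windows of 10 bases before and 20 after the start are shown for 3 members that were lower in females, with CTTTC and CTTCC in capitals.
Rpl15 (chr14:18270967-18270996, GRCm38.p6, minus strand): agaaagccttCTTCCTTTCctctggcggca
Rps18 (chr17:33955646-33955675, GRCm38.p6, minus strand): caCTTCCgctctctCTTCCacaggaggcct
Rpl18 (chr7:45718061-45718090, GRCm38.p6, plus strand): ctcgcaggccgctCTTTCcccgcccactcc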

How the data were processed

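The authors removed ribosomal RNA from total RNA, made dUTP stranded libraries and aligned 50-base single reads to mm9 with TopHat2. The deposited files hold raw counts per gene symbol from HTSeq, with no normalization and with 5 summary lines that are not genes, left out here. Versions, annotation and strand setting are not given in the sources used here. Reads with more than 1 alignment went uncounted.

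Genes were kept by filterByExpr and tested on the counts with edgeR 4.0.16 in R 4.3.3 (TMM factors, quasi-likelihood F-test, Benjamini-Hochberg adjustment over all genes tested), per ganglion for sex and over 12 libraries with 4 group means for TG against DRG and the interaction. DESeq2 1.42.0 was an alternative. CPM values are scaled by TMM over 12 libraries. Positions, lengths and transcripts came from GENCODE on NCBIM37 (the same build as mm9), which matched 82 of 83 members. Each 50-base word of a member transcript (the lowest-numbered with a complete coding sequence) was searched on both strands of the genome, and words across an exon junction count as unique when found nowhere. Fits and word search were tested on simulated data. Paralogue ratios used a pseudocount of 0.5 counts and exact permutation tests (SciPy 1.17.1).

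Same-numbered libraries did not deviate together in every pair, and numbers were not used for pairing in the main fits. Library 3 had the lowest ratio of small- to large-subunit reads in every group. It was 0.777 and 0.808 in female and male TG, and 0.684 and 0.683 in female and male DRG. Library 3 also had the fewest alignments that were not unique, per read in a gene, in every group. Whether libraries of a number share animals or a batch was not tested. Named genes are the paralogues and parents, the 5 smallest p per direction and comparison, the 5 highest and lowest levels, the 5 lowest shares of unique words, Rpl13 and Rpl15, and role members; others were named after their values were seen, and some items are not reported here. Members and lists were chosen with earlier results of these data known.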

Additional observations from a re-analysis of the deposited data

How the results depend on the processing

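In TG against DRG and in the interaction 0 members were called under every alternative run. Even so, in TG against DRG 1 passed the adjusted p alone with a replicate block and 9 in the libraries numbered 1 and 2. In these fits 185 and 217 of all genes met the criteria, and the count of all genes at the adjusted p alone was not kept. For the sexes, counts of all genes called follow in brackets, out of 13963 to 14829 tested. For female against male TG, the 5 members called (1038) became 0 (5) at an adjusted p under 0.05 and 16 (2718) at a fold change above 1.5. They became 1 (1194) without scaling factors, 8 (842) in the model of all 12 libraries and 28 (3496) in the libraries numbered 1 and 2. When a library was left out they were 2 to 17 (585 to 2532). A replicate block gave 3 (833) in TG and 6 (665) in DRG, and with the GC and length correction 2 (266) and 4 (393). Correlations of same-numbered libraries ran from -0.06 to 0.13 between the sexes and from -0.04 to 0.16 between TG and DRG of a sex. Those of differently numbered libraries ran from -0.13 to 0.08. The sources do not say whether the numbers mark shared animals or batches, and these correlations cannot settle it. For DRG, the 7 called (694) became 0 (5) at an adjusted p under 0.05 and 14 (1645) at a fold change above 1.5. They became 3 (748) without scaling factors, 3 (495) with the GC and length correction and 11 (1774) in the libraries numbered 1 and 2. Over left-out libraries they ran from 2 (377) without male DRG 2 to 13 (1180) without male DRG 3. The cause was not tested.

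Median log2 fold changes kept their sign throughout. In TG the median of -0.49 became -0.14 with the GC and length correction, -0.15 with the replicate block added and -0.97 in the libraries numbered 1 and 2, and ran from -0.77 to -0.40 over left-out libraries. In DRG -0.70 became -0.11 with the correction and -0.16 with the block added, and ran from -0.80 to -0.49. Without scaling factors the median of all genes became 0.16 in TG and 0.19 in DRG. The ratio of Rps27l to Rps27 between the sexes in DRG (0.99) reversed to -0.54 without female DRG 1 and ran from there to 1.90, and that of Rpl7l1 to Rpl7 in TG (0.08) reversed to -0.023 without female TG 2 and ran from there to 0.23. The ratio of Rps27l to Rps27 could not be given per unique kilobase, as Rps27 has none. Of the 5 highest levels 3 remained per kilobase of the longest transcript. The median share of unique words was 18.5% with up to 2 mismatches and 9.57% in coding sequence. Without the 3 members with most reads the summed share was 0.232% in female and 0.314% in male TG, and 0.266% in female and 0.361% in male DRG.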
